A study of Homo sapiens with 58 samples.

Results

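The introns described here are those of the 442 human genes that held 100 or more intronic HuR peaks each in a combined table of HuR crosslinking sites from Huh-7.5 cells. The members were chosen by a measured value, the number of called peaks. After 8257 repeated lines were dropped from 395471, the table held 387214 peaks, and 214982 of them were annotated as intronic, all but 959 of them in 9743 named genes. The 442 member genes, 4.54% of those genes, carried 80185 intron peaks, 37.3% of the intronic total. Over all 58 libraries, these peaks held 1417408 of 7887093 sequenced tags in peaks and of 3295961 tags in intron peaks. Because membership was selected on the number of peaks, that number and everything that follows from it (peaks per length, spacing, tags per gene) is description and was not tested. Genes with 100 peaks, just inside the limit, included AFF3, CDC73, FNIP1, NBAS and SLC20A2, and EXOC6, G2E3 and RBM26 had 99 and lay just outside it.

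HuR, the protein of the ELAVL1 gene, is an RNA-binding protein that prefers U-rich and AU-rich stretches and is known for stabilising mRNAs through their 3′UTRs. It resides mostly in the nucleus, where it also contacts introns of unspliced transcripts, and part of it moves to the cytoplasm under stress. CLIP crosslinks a protein to the RNA it touches with ultraviolet light, recovers the protein by immunoprecipitation and sequences the attached fragments. A tag in an intron therefore comes from RNA that still holds that stretch. This can be pre-mRNA, a retained intron, an excised one or another transcript that overlaps it.

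Huh-7.5 is an established human hepatocellular carcinoma line, and every library came from it. Nuclear and cytoplasmic fractions were each prepared from mock cells and from cells given 0.5 mM sodium arsenite, an oxidative stressor, for 45 min, with 3 libraries per group. Proximity-labelled libraries came from 3 lines that express the peroxidase APEX. It was placed in the nucleus (NLS), in the cytoplasm (NES) or near the stress granule protein G3BP (G3BP). In those lines 0.5 mM biotin phenol and 1 mM hydrogen peroxide tagged nearby proteins before crosslinking, and each line gave input libraries and streptavidin-enriched libraries, mock and arsenite. Mock groups held 2 NLS, 2 NES and 4 G3BP inputs and 4 NLS, 4 NES and 6 G3BP enriched libraries. Arsenite groups held 2 NLS, 2 NES and 5 G3BP inputs and 4 NLS, 4 NES and 7 G3BP enriched libraries. All cells were crosslinked at 254 nm with doses of 400 and 200 mJ/cm2. The labels do not say whether the fractionated cells were also labelled with biotin, whether an APEX line is 1 clone, or whether libraries of a group came from separate cultures, so p-values measure only the spread between libraries, which may be technical.

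Depth in peaks ranged from 235471 to 673322 tags over the 12 fractions, from 1353 to 484305 over the inputs and from 519 to 86419 over the enriched libraries, and 32.7% to 64.7% of the member peaks had a tag in a given fraction library. Of 32 pairs of libraries of 1 group and 1 library set, 5 pairs, all enriched, could not be told apart from sampling noise by a chi-square test of their counts and were counted as 1 sample each in the shares and levels below. The gene-level fits of enriched libraries counted every library, and the counts with pairs averaged stand beside them. The library set, the prefix of each sample's description, separated the proximity libraries into JL0361, JL0388 and JL1024, and all fraction libraries were in JL0380. Of 11 hepatocyte markers, 9 had peaks, with ALB at 64.1 to 558 tags per 1000000 of the library total (CPM) and AFP at 395 to 1473 CPM over the fractions, while APOA1 and TTR had no peak. Of 7 markers of blood, endothelial, stromal and basal epithelial cells, PTPRC reached 5.46 CPM and PECAM1 0.866 CPM in the fractions, and the other 5 had no peak. The nuclear-retained RNA NEAT1 stood at 385 to 440.0 CPM in nuclear and 116 to 138 CPM in cytoplasmic mock fractions, and at 436 to 626 and 201 to 280.3 CPM after arsenite. MALAT1, also nuclear-retained, stood at 2149 to 3304 CPM over all 12 fraction libraries, cytoplasmic ones included.

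Each peak in the table is 20 bases long, and its sequence could be read only where it fell within 300 bases around a RefSeq gene start (250 before and 50 after, GRCh38.p14). That was so for 57 member intron peaks in 49 genes, 23 of them at a start of the gene itself and the others at starts of further transcripts inside its introns, so these are not a random sample of the 80185. The 10 sequences below, on the strand of the member gene, give the 20 bases before the peak and its first 10 bases, with runs of 3 or more thymines (uridines in the RNA) in capitals. They are shown because thymine over all such peaks was most frequent in the bases just 5′ of the peak, although in several of the 10, such as MAGI1 and ZBTB20, thymine runs go on into it.
PDE3A, chr12:20370433-20370462, plus strand, 92 tags: cctctcTTTcacacagtagTTTTataacct
TRIM5, chr11:5841990-5842019, minus strand, 84 tags: gagtacaatgctaTTTTTTaTTTTaccagg
ZBTB20, chr3:114624335-114624364, minus strand, 81 tags: TTTTTTgTTTctcttactgttgTTTaTTTa
KIAA1958, chr9:112487850-112487879, plus strand, 79 tags: ttcaagtcTTTTTTTTTcTTTaaggTTTTa
IGF2BP2, chr3:185821162-185821191, minus strand, 73 tags: TTTaaTTTTTTTTTccTTTccTTTattagt
FIGN, chr2:163733927-163733956, minus strand, 44 tags: TTTTTTTTTTTTTTggttgttgctatgTTT
PLCB1, chr20:8400167-8400196, plus strand, 41 tags: gtcataTTTcctgattggaTTTTTatctga
GRIK2, chr6:101454219-101454248, plus strand, 37 tags: TTTgttcTTTTTacTTTccgtcaagacaaa
MAGI1, chr3:65782611-65782640, minus strand, 33 tags: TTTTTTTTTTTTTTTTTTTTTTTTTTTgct
TNS3, chr7:47361194-47361223, minus strand, 30 tags: TTTTTTTTTTTTTTTTTggcatggttactg

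MAGI1, which encodes a membrane-associated scaffold, had 28 thymines in its 30 bases, and PDE3A, a cyclic nucleotide phosphodiesterase gene, had 12, the fewest of the 10. Over the 53 member peaks with 20 bases of upstream sequence, 57.3% of those bases were thymine. The share was 45.1% in the first 10 bases of the 57 peaks, 26.5% in their last 10 bases and 31.6% in the 20 bases downstream of 55 peaks, against 34.0% over all 20-base stretches of the same windows. The 146 intron peaks of other genes in such windows had 58.5%, 44.7%, 22.6% and 30.2% at the same places, so the profile of the member peaks was close to theirs. TTT was found within 41 of the 57 member peaks (71.9%), against 47.0% of all 20-base stretches, and within 63.7% of the other genes' peaks, against 46.0%. ATTTA, the core of the AU-rich element, was found in 4 (7.02%), against 4.89%, and in 5 of the other genes' peaks (3.42%), against 3.34%. Both motifs were searched on the strand of the gene alone, and a TTT inside an ATTTA counts for both.

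**Figure D1:**
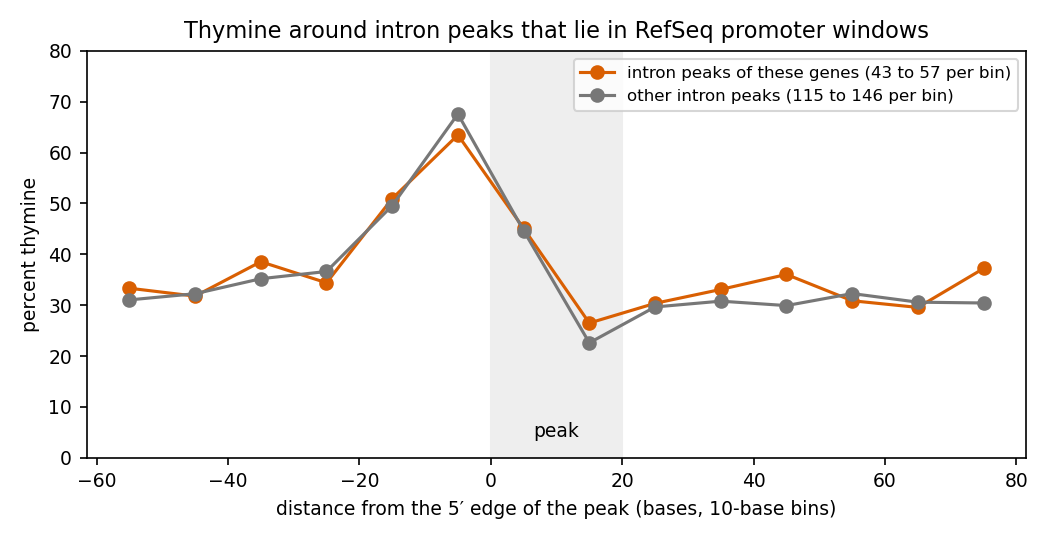
Percentage of bases that are thymine against distance in bases from the 5′ edge of the peak, in bins of 10 bases, for up to 57 member intron peaks and up to 146 other intron peaks that lie within windows around RefSeq gene starts. Both lines rise to their highest values just upstream of the edge, where the 20 bases average 57.3% and 58.5%, and fall to 26.5% and 22.6% in the last 10 bases of the peak.

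The member genes were long and densely covered. They comprised 441 protein-coding genes and 1 long non-coding RNA gene, MIR3171HG, on 23 chromosomes, with 53 on chromosome 2. All 442 matched a RefSeq gene, 440 by symbol and 2, C11orf80 and FAM172A, through an older name, and in 396 of them every peak lay inside the RefSeq gene. In 43 some peaks lay outside it. In the other 3 (CARD18, GNGT1 and TAS2R14) all did, and the 223 peaks named for TAS2R14, a bitter taste receptor gene, lay in the overlapping RefSeq genes PRH1, PRH1-PRR4 and PRH1-TAS2R14. A further limit on gene names is that 1483 peaks (1.85%) lay inside a second RefSeq gene of the same strand.

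Over the 396 genes, RefSeq length had a median of 263 kb (65.5 to 1899.6 kb), against 48.9 kb for 8429 other genes with intron peaks. Peaks were spaced at a median of 6.39 per 10 kb (0.778 to 28.5), against 1.44. Among genes of 263 kb or more, 198 members had a median of 4.30 peaks per 10 kb and 607 other genes 0.109, a gap that the choice of members by peak number fixes. Among members, the number of peaks rose with length (Spearman 0.512 across genes, which are not independent) and their density fell with it (-0.762). LRP1B, a receptor of the LDL receptor family, was the longest member at 1899.6 kb with 565 peaks. The ethanolamine kinase gene ETNK1 was the shortest at 65.5 kb with 113 peaks. ARHGAP5, which encodes a GTPase-activating protein, was the most densely covered with 28.5 peaks per 10 kb, followed by STRN3 with 20.1. CCSER1, at 0.778, and the phosphodiesterase gene PDE4D, at 1.13, were the sparsest.

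The median member gene had 146 intron peaks, against 6 for all genes with an intron peak. The 10 genes with the most peaks held 8.42% of the member peaks, so no small group of genes made up the set. These were GPC6 (942 peaks, a cell-surface heparan sulfate proteoglycan), SOX5 (939, a transcription factor), DPYD (756, the first enzyme of pyrimidine breakdown), PLCB1 (657, a phospholipase C) and MIR3171HG (656), followed by the receptor phosphatase gene PTPRK (622), the Rab regulator gene TBC1D5 (569), LRP1B (565), the fragile-site gene WWOX (528) and the zinc finger repressor gene ZBTB20 (520).

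Neighbouring peaks of a member gene lay a median of 735 nt apart, against 1294 nt in other genes, and 11.7% of the gaps were under 100 nt, against 8.29%. A member peak held a median of 12 tags over all libraries, against 9 for other intron peaks. The highest member peak held 884 tags and the highest other intron peak 5557. The highest peak held a median of 4.48% of a member gene's intron tags. It passed 20% in 2 genes: AEBP2, which encodes a cofactor of the Polycomb complex PRC2, with 25.9%, and FNIP1, which encodes a folliculin-interacting protein, with 23.4%. The table's annotation marked 27.02% of member peaks as lying in retained introns too, against 31.1% of other intron peaks, and 13.3% as downstream of a gene too, against 25.7%. Of the member tags, plain introns held between 66.7% and 67.7%, retained introns between 25.4% and 26.0% and downstream introns between 12.3% and 13.6% as means of the 4 fraction groups.

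Peaks lay nearer the start of the genes than the end. On a scale from 0 at the start to 1 at the end of the RefSeq gene, in the direction of transcription, the mean peak position averaged 0.451 over the 396 genes with all 70769 peaks inside (SD 0.0895), and was below the middle in 307 of them. The first 10% of the gene length held 11.9% of the peaks and the last 10% held 4.95%. How much intron sequence each part holds was not counted, and peaks in exons and 3′UTRs belong to other classes. The peaks of RPS6KC1 (mean position 0.147), NBAS (0.183) and TASP1 (0.229) lay nearest the start. Those of ADGRL2 (0.837), COL5A2 (0.802) and DAB1 (0.782) lay nearest the end.

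Tags in the nuclear fraction of mock cells lay nearer the start than those in any other fraction group. The tag-weighted mean position, averaged over the 396 genes, was 0.423 ± 0.00144 (SD, n = 3) in nuclear mock, 0.436 ± 0.000793 in cytoplasmic mock, 0.435 ± 0.00175 in nuclear arsenite and 0.443 ± 0.00252 in cytoplasmic arsenite. The nuclear minus cytoplasmic difference was -0.0131 in mock and -0.00880 in arsenite cells, and the arsenite minus mock difference was 0.00766 in the cytoplasm and 0.0120 in the nucleus. In each of these 4 comparisons the 3 libraries of 1 group did not overlap the 3 of the other, and each gave p = 0.1 in a two-sided exact permutation test, the smallest value that 3 against 3 allows. The shift was small against the gene's length: the first 10% of the length held 14.7% of the tags in nuclear mock, 13.8% in cytoplasmic mock, 13.3% in nuclear arsenite and 12.9% in cytoplasmic arsenite libraries. The last 10% held 3.94%, 4.43%, 4.18% and 4.43%. GPC6 had tag-weighted positions of 0.293 ± 0.00191 in nuclear mock, 0.302 ± 0.00336 in cytoplasmic mock, 0.308 ± 0.00191 in nuclear arsenite and 0.324 ± 0.00692 in cytoplasmic arsenite (SD, n = 3), with nuclear mock lowest and cytoplasmic arsenite highest as over all genes, and the 2 groups between them in the other order. With the highest peak of every gene left out, an alternative chosen after seeing the data, the nuclear minus cytoplasmic difference in mock cells was again -0.0131. The cytoplasmic arsenite minus mock difference was smaller with all member tags pooled (0.00489) and over genes with 150 or more peaks (0.00486), each with exact permutation p = 0.1.

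**Figure D2:**
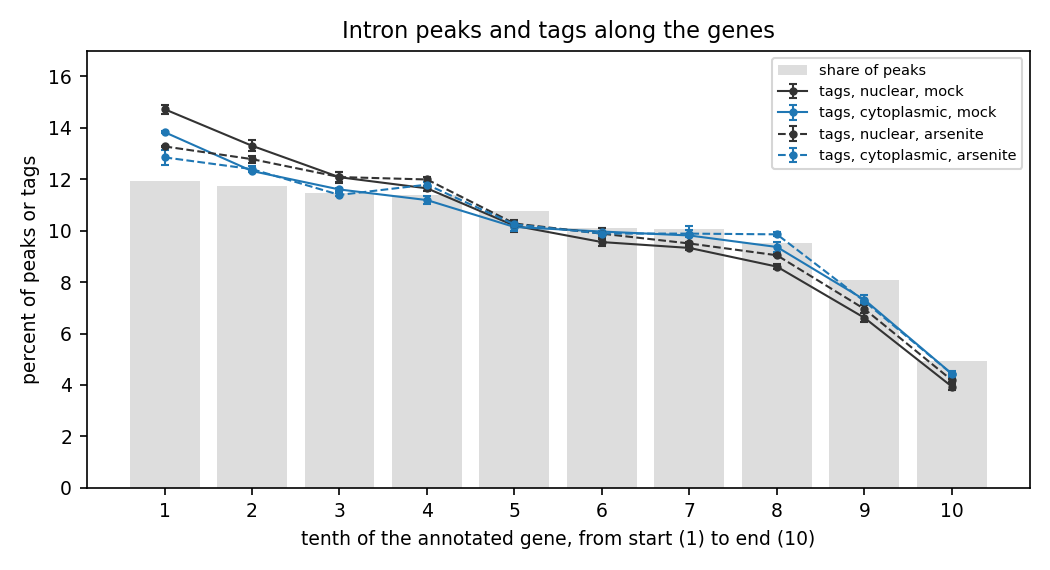
Percentage of peaks, and of tags in each of the 4 fraction groups, in 10 equal parts of the gene from start to end, over 396 member genes; grey bars are peaks, points are means of 3 libraries and error bars their SD. The first part holds 11.9% of the peaks and 14.7% of the nuclear mock tags, and the last part 4.95% and 3.94%.

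How much of a library's HuR signal lay in these introns differed between fractions and with arsenite. In nuclear mock libraries 22.6%, 22.9% and 23.3% of all tags in peaks lay in the member introns, and in cytoplasmic mock libraries 11.2%, 11.2% and 14.6%. After arsenite the shares were 19.96%, 21.0% and 21.2% in the nucleus and 19.2%, 19.2% and 19.5% in the cytoplasm. The cytoplasmic share thus lay close to the nuclear one after arsenite and well below it in mock cells. In these bulk libraries, a share cannot tell fewer bound intron molecules from more binding elsewhere, nor fewer cells from less RNA per cell.

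Nuclear and cytoplasmic means lay 10.6 percentage points apart in mock cells (22.9% ± 0.350 against 12.3% ± 1.95, SD, n = 3) and 1.38 in arsenite cells (20.7% ± 0.650 against 19.3% ± 0.200). Arsenite minus mock was 7.01 points in the cytoplasm and -2.23 in the nucleus. None of these pairs of groups overlapped, and each had a two-sided exact permutation p of 0.1, the smallest possible, or 0.133 after Benjamini-Hochberg adjustment over the 8 comparisons of shares. The introns of all genes held 53.9% ± 0.359 of nuclear mock, 30.5% ± 3.74 of cytoplasmic mock, 47.3% ± 1.38 of nuclear arsenite and 43.7% ± 0.760 of cytoplasmic arsenite peak tags. Within intron tags the members held 42.5% ± 0.367, 40.2% ± 1.45, 43.8% ± 0.192 and 44.2% ± 0.310 in the same order (SD, n = 3). On that scale nuclear minus cytoplasmic came to 2.31 points without arsenite (exact permutation p = 0.1) and -0.440 in arsenite cells (p = 0.2), and arsenite minus mock was 3.99 in the cytoplasm and 1.24 in the nucleus (both p = 0.1). The nuclear arsenite difference therefore turned from negative to positive when only intron tags were counted. As a percentage of the deposited library total, nuclear minus cytoplasmic came to 3.22 points without arsenite (exact permutation p = 0.1) and 0.189 with it (p = 0.5), and arsenite minus mock was 2.56 in the cytoplasm (p = 0.1) and -0.475 in the nucleus (p = 0.2).

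**Figure D3:**
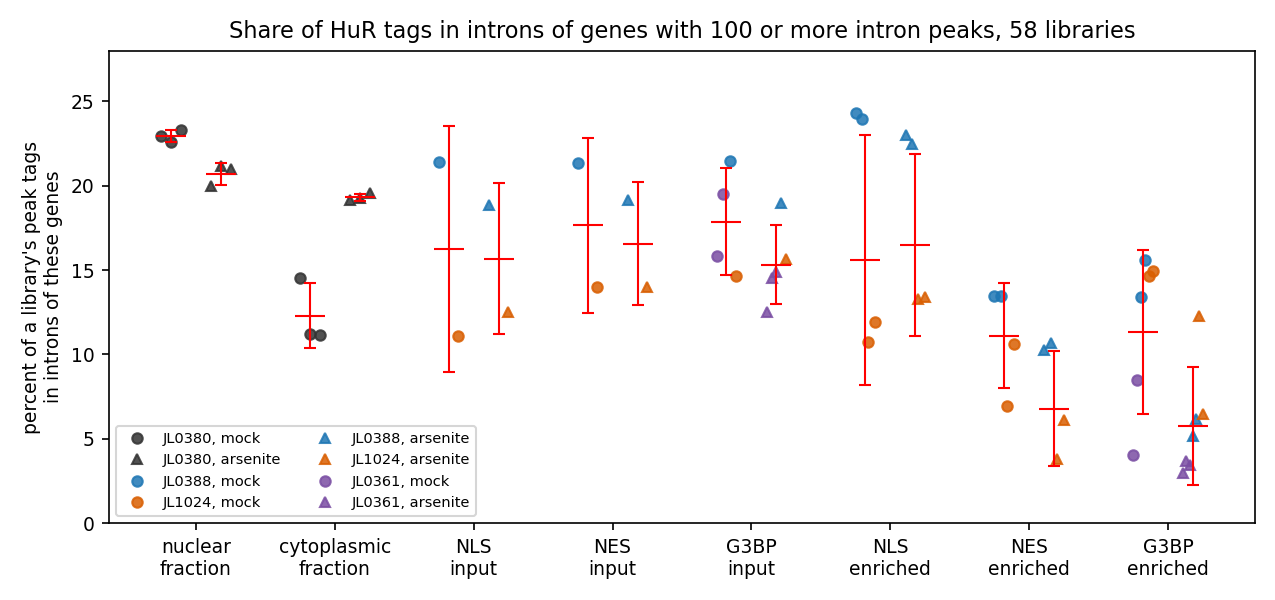
Percentage of each library's tags in peaks that lie in the member introns, for all 58 libraries in 16 groups; circles are mock and triangles arsenite, colours are library sets, and red marks are the mean and SD with pairs within sampling noise counted once. Cytoplasmic mock libraries lie at 11.2% to 14.6% and the 9 other fraction libraries at 19.2% to 23.3%, and in the NLS and NES groups every JL0388 library lies above the JL1024 libraries.

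Among the proximity libraries, HuR captured near the nuclear APEX under arsenite carried more member intron tags than HuR captured near the cytoplasmic APEX in every library. In sets JL0388 and JL1024, with pairs within sampling noise averaged to 1, enriched arsenite samples held 16.5% ± 5.41 for NLS and 6.79% ± 3.39 for NES (SD, n = 3). The difference was 9.69 points (two-sided exact permutation p = 0.1, the smallest possible with 3 against 3, 0.133 adjusted over 8). It was 12.3 points within JL0388 and 8.41 within JL1024. With all 4 libraries of each group counted separately it was 10.3 points (exact permutation p = 0.0286). That value treats the libraries of a pair within sampling noise as separate replicates. Counted in that way, it was 9.02 or 9.80 without either JL1024 library of NES (exact permutation p = 0.0857) and 1.69 points as a share of the deposited library total (exact permutation p = 0.143). In mock cells the NLS share was 15.6% ± 7.41 (SD, n = 3) and the NES share 11.1% ± 3.10 (n = 4), 4.50 points apart (exact permutation p = 0.429), with overlapping groups. That difference was 10.7 within JL0388 and 2.58 within JL1024.

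With pairs counted once, the G3BP minus NES difference among enriched libraries of these sets came to 3.59 points without arsenite (14.7% ± 0.243, n = 3, against 11.1% ± 3.10, n = 4, SD; exact permutation p = 0.0857), with 1.04 in JL0388 and 6.04 in JL1024. In arsenite cells it was 1.35 (exact permutation p = 0.6), and -0.185 with every library counted. There the sets went opposite ways, with -4.79 in JL0388 and 4.42 in JL1024. Over all sets, enriched G3BP libraries held 11.3% ± 4.88 in mock (n = 5) and 5.75% ± 3.48 in arsenite cells (n = 6). The 5 G3BP libraries of JL0361 were among the lowest of all, between 2.95% and 8.51%. The inputs of the 3 lines lay between 11.1% and 21.5%. In every line and treatment the JL0388 input was higher than the JL1024 input.

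Summed over a gene's intron peaks, nearly all member introns had a higher HuR level in the nuclear than in the cytoplasmic fraction of mock cells when each library was scaled to its total. With limma, 421 of 442 members were higher in the nucleus and 1, FNIP1, was lower at an adjusted p under 0.05, against 27.6% and 1.89% of all genes. Members were chosen for many peaks, so their sums hold more tags and a difference of the same size is called more easily in them. The shares of members and of all genes called are therefore not a like comparison, here and in the gene comparisons below. The part of this in the result was not tested. The median log2 difference was 0.77, against 0.38 over all 9222 genes tested, of which 29.5% were called. The level was log2 of CPM plus a pseudocount of 2.283806 CPM. With a pseudocount 4 times smaller and larger the median of all genes was 0.57 and 0.17 and that of the members 0.78 and 0.72, so the gap between them depended on this setting. Scaling to each library's intron tags moved the median of all genes from 0.38 to 0.01 and that of the members to 0.09. On that scale 55 members were higher and 12 lower, with 5.52% of all genes called, and edgeR on the recovered tags gave 53 and 9 (3.78% of all genes called). The edgeR fits, here and below, rescale each library by a trimmed mean over the features tested (TMM). This moved the median of all genes to 0.03, so edgeR too left the library-total scale. Of the 67 members called per intron tag, 56 were among the 422 called per library total. The 2 scales answer different questions: the first how much HuR signal a gene's introns had in the library, the second whether a gene's introns differed from introns at large.

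**Figure D4:**
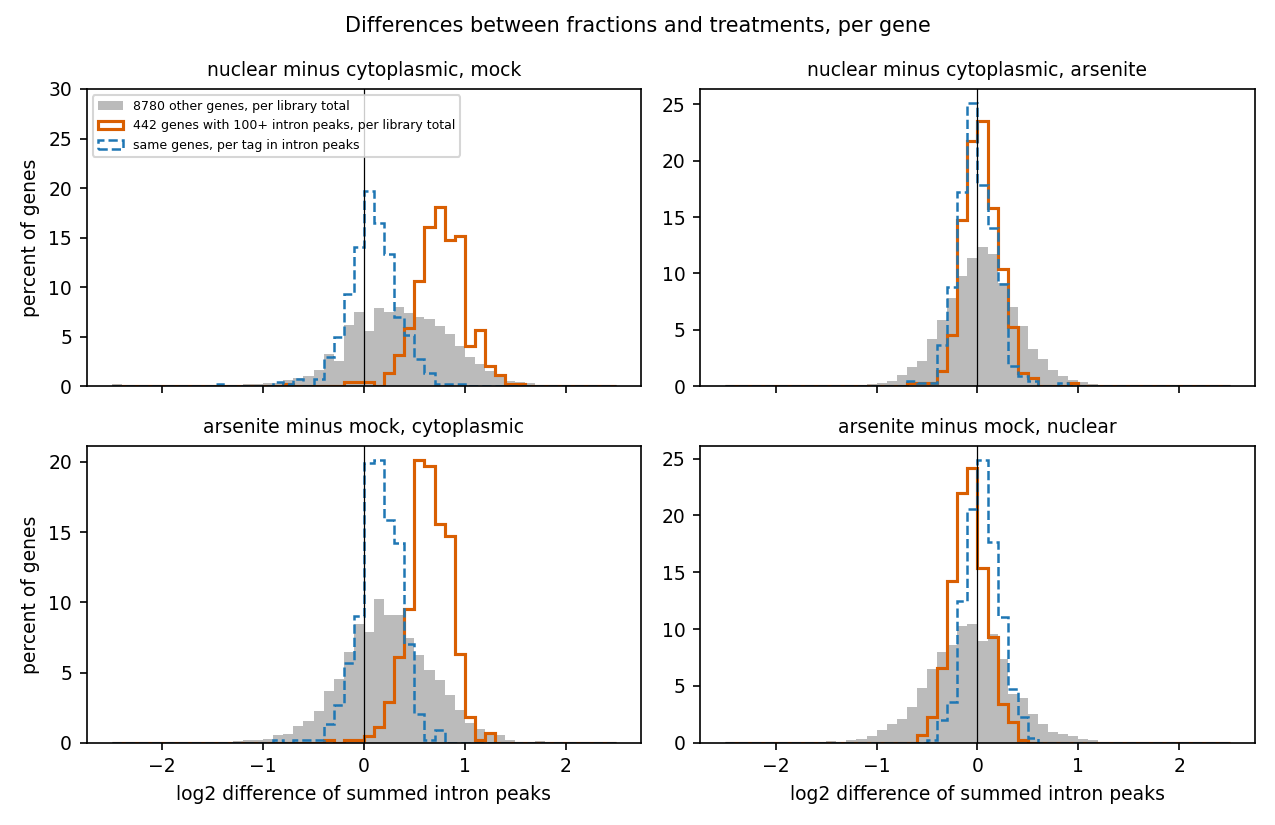
Histograms of the log2 difference of summed intron levels for member genes (442) and the other genes tested (8780) in 4 fraction comparisons; the dashed line gives the members scaled to intron tags. The members centre on 0.77 for nuclear minus cytoplasmic in mock cells and on 0.65 for arsenite minus mock in the cytoplasm, and on 0.09 and 0.15 per intron tag.

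GPC6 had the most tags of any member. Its introns stood at 1514, 1372 and 1521 CPM in nuclear mock and at 1144, 794 and 746 CPM in cytoplasmic mock libraries. After arsenite they stood at 1056, 1281 and 1174 CPM in the nucleus and at 1245, 1313 and 1236 CPM in the cytoplasm. The mock groups did not overlap, and the arsenite groups did. The nuclear minus cytoplasmic log2 difference in mock cells was 0.74 ± 0.09 (SE, limma adjusted p = 2.6e-09), and 0.05 per intron tag. SOX5, DPYD, PTPRK, LRP1B and ZBTB20 were likewise higher in the nucleus per library total, with log2 differences of 0.54 to 0.68, and between -0.15 and -0.01 per intron tag, where none was called. PLCB1 (0.89), MIR3171HG (0.94), TBC1D5 (0.92) and WWOX (1.12) were higher on both scales, with 0.20, 0.25, 0.23 and 0.44 per intron tag.

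The largest nuclear excess was in ASXL1, which encodes a Polycomb-associated chromatin regulator. Its 120 peaks stood at 197, 164 and 189 CPM in nuclear mock and at 60.6, 54.0 and 64.3 CPM in cytoplasmic mock libraries, and at 155, 148 and 162 and at 113, 119 and 116 CPM after arsenite. The nuclear libraries lay above the cytoplasmic ones under both treatments. The log2 difference in mock cells was 1.58 ± 0.13 (SE, limma adjusted p = 1.1e-15) and 0.91 per intron tag. CMTM8 (1.49), the bromodomain gene CECR2 (1.38), the axonemal dynein gene DNAH14 (1.36) and the homeobox gene CUX1 (1.35) followed, and all 4 were also called per intron tag, at 0.68 to 0.82.

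FNIP1 was the 1 member called in the opposite direction, and its highest peak set that direction. Its introns stood at 58.3, 66.4 and 68.6 CPM in nuclear mock and at 88.3, 125 and 127 CPM in cytoplasmic mock libraries (log2 difference -0.78 ± 0.15, SE, limma adjusted p = 2.9e-05). The peak at chr5:131658529-131658549 on the minus strand held 1.46, 2.73 and 2.90 CPM in nuclear mock and 40.4, 77.4 and 65.4 CPM in cytoplasmic mock libraries. It lies at 0.892 of the gene's length and was at 6.002 ± 2.503 CPM in nuclear and 17.2 ± 4.58 CPM in cytoplasmic arsenite libraries (SD, n = 3). The other 99 peaks of FNIP1 gave a log2 difference of 0.24 (limma adjusted p = 0.26), so without that peak the direction was positive and not called.

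**Figure D5:**
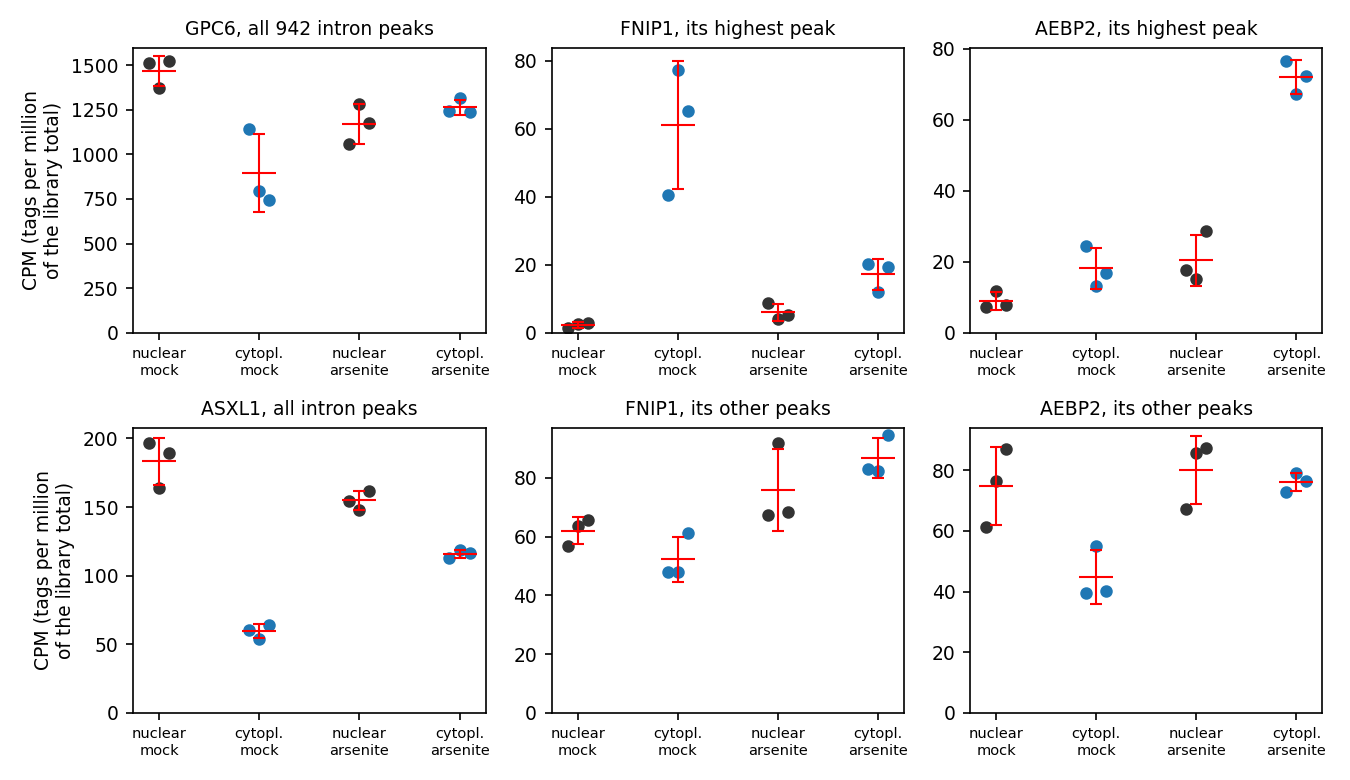
CPM in each of the 12 fraction libraries for the introns of GPC6 and ASXL1 and, for FNIP1 and AEBP2, the highest peak and the sum of the other peaks; points are libraries and red marks the mean and SD of 3. The FNIP1 peak lies at 1.46 to 2.90 CPM in nuclear mock and 40.4 to 77.4 CPM in cytoplasmic mock libraries, while the ranges of its other peaks overlap, at 56.8 to 65.7 and 47.9 to 61.2 CPM.

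Under arsenite the 2 fractions hardly differed in these introns. Of the 442 members, 4 were higher in the nucleus and 2 lower (limma, adjusted p under 0.05), with a median log2 difference of 0.03 and 0.846% of all genes called (0.542% higher, 0.304% lower). Per intron tag 5 were higher and 7 lower, with 0.857% of all genes called, and edgeR gave 11 and 17 (2.08%). ANKRD11, which encodes an ankyrin-repeat chromatin cofactor, stood apart at 134, 154 and 143 CPM in the nucleus against 59.9, 81.3 and 86.3 CPM in the cytoplasm (log2 difference 0.92 ± 0.15, limma adjusted p = 5.4e-05), and was called under all 16 alternatives tried. CUX1 (0.59), DNAH14 (0.57) and the synaptic scaffold gene SHANK2 (0.53) were also higher in the nucleus. SEMA3A, a secreted guidance factor gene, was lower, at 47.2, 51.2 and 43.3 CPM in the nucleus against 79.4, 78.4 and 68.2 CPM in the cytoplasm (-0.65 ± 0.17, limma adjusted p = 0.037). AEBP2 was lower too (-0.56 ± 0.15, limma adjusted p = 0.039), but its other 137 peaks without the highest one gave 0.06 (adjusted p = 0.94). Of the 6 calls, 2 remained without cytoplasmic arsenite library 3, 3 without nuclear arsenite library 1, and 1 without each of the other 4 libraries in turn.

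Arsenite raised the level of most member introns in the cytoplasmic fraction per library total. There 398 members were higher and 1, PDE3A, lower than in mock cells (limma, adjusted p under 0.05), with a median log2 difference of 0.65, against 0.24 over all genes, of which 17.5% were called (16.2% higher, 1.34% lower). Per intron tag, which moved the median of all genes to 0.00 and of the members to 0.15, 78 members were higher and 7 lower (5.48% of all genes called), and edgeR gave 152 and 3 (5.97%). With a pseudocount 4 times smaller and larger the median of all genes per library total was 0.40 and 0.095 and that of the members 0.66 and 0.60. Among the markers, NEAT1 was higher in the cytoplasmic libraries after arsenite (201 to 280.3 CPM) than before (116 to 138 CPM), and MALAT1 overlapped (2403 to 3304 and 2149 to 2708 CPM). The summed level of the 9 hepatocyte markers with peaks was lower, at 965 to 1083 CPM after arsenite and 1806 to 2548 CPM before, and likewise in the nucleus, at 663 to 713 and 1134 to 1216 CPM. The part of these in the result was not tested.

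The largest increase was in AFF3, a gene of the AF4/FMR2 family of transcription regulators, from 24.5, 19.4 and 12.7 CPM in mock to 45.5, 52.9 and 39.6 CPM after arsenite (log2 difference 1.23 ± 0.20, SE, limma adjusted p = 2.1e-06). ATXN2, the gene of a stress granule RNA-binding protein, went from 80.8, 73.3 and 81.2 to 160.3, 194 and 197 CPM (1.199 ± 0.13, limma adjusted p = 3.8e-11). DENND5B, which encodes a Rab exchange factor, rose by 1.22, AEBP2 by 1.21 and the Golgi mannosidase gene MAN2A1 by 1.09 on the log2 scale. In all 5 genes the arsenite libraries lay above the mock libraries, and all 5 were also called per intron tag, at 0.60 to 0.77. Part of the AEBP2 rise came from its highest peak, at chr12:19530044-19530064 on the plus strand, which lies 7818 bases past the end of the RefSeq gene. That peak went from 24.5, 13.2 and 16.9 to 76.5, 67.1 and 72.3 CPM, and the other 137 peaks of the gene rose by 0.75 (limma adjusted p = 3.1e-04).

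PDE3A went the other way, from 207, 231 and 219 CPM in cytoplasmic mock to 157, 189.9 and 170.4 CPM in cytoplasmic arsenite libraries (-0.35 ± 0.12, limma adjusted p = 0.027), and to -0.85 per intron tag. Its introns were at 199 to 227 CPM in nuclear mock libraries, so PDE3A was also among the few members with no nuclear excess (log2 difference -0.02). A single peak, chr12:20553177-20553197 on the plus strand, fell from 22.3, 34.6 and 39.0 to 4.33, 5.68 and 2.09 CPM. Without the gene's highest peak, which is another one (549 tags over all libraries, against 246), the log2 difference of PDE3A was -0.19 (limma adjusted p = 0.30).

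In the nuclear fraction few member introns, and few introns of all genes, were called between arsenite and mock. Of 442 members, 0 were higher and 11 lower (2.49%; limma, adjusted p under 0.05), close to the 2.87% of all genes called (0.824% higher, 2.05% lower), and a median log2 difference of -0.08. Per intron tag 14 were higher and 5 lower, with 2.17% of all genes called, and edgeR gave 35 and 3 (3.23%), so the balance of directions depended on the scale. CSPP1, which encodes a centrosome and spindle protein, was lowest, from 138, 131 and 139 CPM in mock to 97.7, 88.0 and 83.2 CPM (-0.59 ± 0.14, limma adjusted p = 0.0068; -0.46 per intron tag). C11orf80 (-0.53), the adhesion receptor gene ADGRG6 (-0.52), the FGF receptor adaptor gene FRS2 (-0.49) and the GTPase regulator gene DLC1 (-0.48) followed. The groups of all 5 did not overlap. Without nuclear mock library 1 none of the 11 calls was made (38 members had an unadjusted p under 0.05), and leaving out any other of the 6 libraries gave 1 to 5.

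The arsenite difference itself differed between the fractions for 340 of the 442 members, all with a smaller change in the nucleus than in the cytoplasm (limma interaction term, adjusted p under 0.05), against 11.5% of all genes (0.618% positive, 10.9% negative). The median interaction was -0.73, against -0.36 over all genes. ASXL1 had -1.17 ± 0.19 and GPC6 -0.85 ± 0.13 (SE). Per intron tag 6 members had an interaction, 2 positive and 4 negative, with 0.716% of all genes called (59 positive, 7 negative). By edgeR there were 9, 2 positive and 7 negative, with 0.77% of all genes called (54 positive, 17 negative). The balance of directions over all genes was thus opposite to that per library total. The median over all genes was -0.54 and -0.15 with a pseudocount 4 times smaller and larger, and that of the members -0.74 and -0.68. Without cytoplasmic arsenite library 2 the count was 226.

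The lists below hold 220 of the 442 members, and their counts read against the 421 of 442 above, since nearly every member was higher in the nucleus in mock cells. Of the chromatin and transcription genes 44 of 44 were higher in nuclear mock than cytoplasmic mock libraries (median log2 difference 0.80), of the GTPase and cytoskeleton genes 36 of 36 (0.76), of the kinase, phosphatase and signalling genes 42 of 44 (0.76), of the large or fragile-site genes 27 of 27 (0.77) and of the membrane traffic genes 25 of 26 (0.70). RNA processing genes gave 20 of 21 (0.77), ubiquitin pathway genes 19 of 19 (0.71), liver and lipid metabolism genes 10 of 10 (0.69) and cell cycle and DNA repair genes 10 of 10 (1.06). None of the listed members was called lower.

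By list, the genes with the most intron peaks beside those above were the ubiquitin ligase genes UBR3 (0.66) and COP1 (0.52), the cell polarity genes PARD3 (0.65) and PARD3B (0.62), the exocyst gene EXOC4 (0.64), the adenosine kinase gene ADK (0.71), CNTLN (1.07) and EIF4G3 (1.01), all higher in nuclear mock libraries. Per intron tag UBR3, COP1, PARD3, PARD3B and EXOC4 lay between -0.16 and -0.02, and none was called.

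Per intron tag 55 of 442 members were higher and 12 lower, and differences between lists were not tested. Of the 10 cell cycle and DNA repair genes, 5 were higher in the nucleus, namely the centromere protein gene CENPP, the centrosome genes CEP192 and CNTLN, the cohesin regulator gene PDS5B and the DNA repair kinase gene PRKDC (list median 0.39, all members 0.09). CENPP stood at 232 ± 4.99 CPM in nuclear and 106 ± 20.9 CPM in cytoplasmic mock libraries (SD, n = 3). Of the chromatin and transcription genes 11 were higher, among them ASXL1, CUX1 and AFF3, and 1, SETD5, lower (median 0.13). Of the RNA processing genes 6 were higher, among them ATXN2 and EIF4G3, a translation initiation factor gene, and 1, the deadenylase subunit gene CNOT4, lower (0.09). The GTPase and cytoskeleton genes gave 3 higher, the membrane traffic genes 4, the large or fragile-site genes 4, the ubiquitin genes 1 and the liver and lipid genes 0, with none lower in these lists. The signalling genes gave PLCB1 higher and PDE3A lower.

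In the cytoplasm, where 398 of 442 members and 16.2% of all genes rose with arsenite per library total, arsenite raised 42 of 44 chromatin and transcription genes, 20 of 21 RNA processing genes, 16 of 19 ubiquitin genes, 33 of 36 GTPase and cytoskeleton genes, 25 of 26 membrane traffic genes, 26 of 27 large or fragile-site genes, 9 of 10 liver and lipid genes and 8 of 10 cell cycle genes. Of the 44 signalling genes 37 rose and PDE3A fell. Per intron tag, where 78 of 442 members rose, 10 of the 27 large or fragile-site genes rose, among them DPYD, WWOX and PLCB1, and 10 of the 44 chromatin genes. Liver and lipid genes included ADK and DPYD among those that rose and ACSL4, a fatty acid activating enzyme gene, as the 1 that fell. Of the splicing regulator gene MBNL1, higher in the nucleus in mock cells per library total (0.49), the difference was -0.20 per intron tag, and its introns fell in the nucleus after arsenite on both scales (-0.45 and -0.32).

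Median differences of introns and 3′UTRs of the same genes had opposite signs in each fraction comparison per library total. In 2 of the 4 comparisons the sign for the introns depended on the scale: the median over all members for arsenite minus mock in the nucleus went from -0.08 to 0.05 per intron tag and 0.11 by edgeR, and for nuclear minus cytoplasmic arsenite from 0.03 to -0.02 and -0.04. Of the members, 407 also had 3′UTR peaks, and 405 of these could be compared. In mock cells their median nuclear minus cytoplasmic log2 difference was 0.76 for introns and -1.07 for 3′UTRs, with a positive value in 400 genes for introns and in 40 for 3′UTRs. Under arsenite the medians were 0.02 and -0.13, positive in 227 and 154 genes. Arsenite minus mock had medians of 0.65 and -0.33 in the cytoplasm, positive in 402 and 111 genes, and of -0.08 and 0.51 in the nucleus, positive in 124 and 331. GPC6 had -2.05 for its 6 3′UTR peaks in nuclear minus cytoplasmic mock libraries beside 0.74 for its introns, and ZBTB20 had -1.06 for 60 3′UTR peaks beside 0.66. Both sets of values come from the same libraries and the same library totals.

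Few single member peaks were called. A member peak held a median of 12 tags over all libraries, so a peak that was not called may still differ. In nuclear minus cytoplasmic mock libraries 187 member peaks were higher and 15 lower, 0.561% of the 35984 that passed the filter, against 2.82% of all peaks of every class, 0.53% higher and 2.29% lower, and against 0.613% of intron peaks of other genes (limma, adjusted p under 0.05, 6 libraries). The excess of higher peaks depended on the scale: per intron tag 93 were higher and 69 lower (5.03% of all peaks called), and edgeR gave 8 and 8 (1.17%). In arsenite libraries 25 were higher and 23 lower (0.257% of all peaks called, 0.11% higher and 0.147% lower), arsenite raised 128 and lowered 8 in the cytoplasm (0.76% of all peaks called, 0.24% higher and 0.52% lower), and raised 1 and lowered 1 in the nucleus (0.186%, 0.152% higher and 0.034% lower). These counts are unstable: leaving out 1 library gave 0 to 3298 peaks for nuclear minus cytoplasmic mock and 0 to 3728 for cytoplasmic arsenite minus mock, so the peaks named here are described by their values.

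In mock cells a peak of the neurofibromin gene NF1, at chr17:31347405-31347425 on the plus strand, had no tag in any nuclear library and 12.8, 22.4 and 26.4 CPM in the cytoplasmic ones, which is at least 6.16-fold lower against a floor of 3 tags per library. A peak of CNOT4 was at 1.46, 0 and 2.90 CPM in nuclear and 18.1, 26.5 and 23.2 CPM in cytoplasmic libraries. By the deposited annotation the CNOT4 peak, like the FNIP1 peak above, lies in an intron alone. The NF1 peak is marked as intron too, but also as downstream of a gene and as retained intron. Peaks of C11orf80 (13.8 against 1.03 CPM, means of 3 libraries), PACS1 (12.2 against 0.691 CPM) and STRN3 (11.3 against 0.706 CPM) had the largest nuclear excess. Under arsenite, peaks of PSMD14, AOPEP and PLEKHA5 were at 9.002 to 10.98 CPM in the nucleus and 0.671 to 1.27 CPM in the cytoplasm, and peaks of ACACA and GOLGA4 were at 0.267 and 3.00 CPM in the nucleus and at 10.1 and 19.7 CPM in the cytoplasm.

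Arsenite raised single cytoplasmic peaks of R3HDM2, PBX3 and the thyroid hormone receptor gene THRB from means of 1.40 to 2.10 CPM to 16.8 to 20.1 CPM, and lowered peaks of SUMF1 and of the guidance receptor gene ROBO1, besides that of PDE3A, from 18.1 and 21.6 to 1.27 and 2.65 CPM. In the nucleus it raised a peak of AFDN, the gene of the junction protein afadin, at chr6:167910985-167911005 on the plus strand, from 10.2, 12.7 and 10.6 to 32.0, 44.0 and 50.2 CPM (log2 difference 1.70 ± 0.24, limma adjusted p = 0.014). The same peak went from 12.2 to 36.6 CPM in the cytoplasm. The 1 peak lowered in the nucleus was in ARHGAP5, from 15.7 ± 0.986 to 3.84 ± 0.582 CPM (SD, n = 3). Both nuclear calls, of AFDN and ARHGAP5, were lost by edgeR and with no filter. They were also lost without nuclear mock library 1, 2 or 3 or nuclear arsenite library 1 or 2. Each of these settings called 0 member peaks in the nucleus.

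In the enriched libraries, how many members were called between NLS and NES in mock cells, and how that compared with all genes, depended on the setting. Every member called was higher in NLS, but the filter admits a gene with tags in the NLS libraries alone, and NES libraries were shallower, with 2981 to 5011 tags in peaks in mock cells against 20609 to 34803 for NLS, and 4837 to 21738 against 12474 to 35859 under arsenite. With library set as a covariate and every library counted, limma called 117 of 434 members in mock cells (27%), against 28.9% of 1708 genes, with median log2 differences of 1.82 and 1.47. The mock count was 51 with pairs within sampling noise averaged, beside 593 over all genes, 39 scaled to tags in all peaks (394 over all genes), 25 per intron tag (379, or 22.2% of all genes) and 65 by edgeR (74, or 4.33%). The members' median was 0.90 per intron tag, 1.26 scaled to all peaks, and 2.56 and 1.11 with a pseudocount 4 times smaller and larger. With no filter limma called 0, and 210 members had an unadjusted p under 0.05. Under arsenite it called 283 of 439 members, against 34.6% of 1897 genes (34.5% higher, 0.158% lower), with medians of 2.03 and 1.52. That count was 288 with pairs averaged (783 over all genes), 88 scaled to all peaks (297), 10 per intron tag (177, or 9.33% of all genes) and 11 by edgeR (27, or 1.42%), and 0 with no filter (343 with an unadjusted p under 0.05). The median was 0.77 per intron tag, 1.504 scaled to all peaks, and 2.63 and 1.34 with the smaller and larger pseudocount. PLCB1 had the smallest p of the 10 genes with the most peaks under arsenite, at 280.5 ± 282 CPM in NLS and 55.9 ± 76.4 CPM in NES (SD, n = 3 each). The SDs are as large as the means. With the set taken into account its log2 difference was 2.68 ± 0.32 (SE, limma adjusted p = 1.1e-07). That fit counted all 4 libraries of each group, so its p-value treats the pairs within sampling noise as separate replicates. In mock cells PLCB1, MIR3171HG, WWOX, SOX5, PTPRK and TBC1D5 were called among those 10 genes, and GPC6, DPYD, LRP1B and ZBTB20 were not. In mock cells 7 of the 8 libraries, when left out 1 at a time, took the count to between 28 and 77, and NES mock 4 took it to 108. Under arsenite it was 143 to 183 without NLS arsenite 1, 2 or 3 or NES arsenite 3, and 195 to 307 without any of the other 4. These leave-out counts are of members alone and give no comparison with all genes.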

How the data were processed

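HuR CLIP tags from 58 libraries of Huh-7.5 cells were read from 1 table of peaks. Its values are a signal, deposited by the authors as the tags in a peak divided by a total of the library; each value was a whole multiple of the library's smallest (tolerance 0.02 tags, 100% of values whole), so whole tags were recovered. The table also holds a score per peak as deposited, of unstated scale, and counts of libraries with a value, made by the authors; neither was tested. The submitters' processing notes name GRCh38.p14, Bowtie2, SAMtools, bedtools and HOMER, without versions. Whether coordinates count from 0 or 1 is not given in the sources used here.

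Repeated lines were dropped and 959 intron peaks without a gene name were not assigned. Levels were log2(CPM + 2.283806), the pseudocount being the median of the libraries' smallest values, so folds of low genes or peaks are understated. Gene sums were tested with limma 3.58.1 (trend) in R 4.3.3 over 12 fraction libraries, or with library set as a covariate for NLS and NES; peaks were tested on the 6 libraries compared. A feature was tested where the number of libraries with a tag reached the size of the smallest group. P-values were adjusted by the Benjamini-Hochberg method over all features, and the scripts were tested on simulated data. Shares and positions were compared by exact permutation in Python 3.11.15 with scipy 1.17.1; for enriched libraries, pairs within sampling noise were averaged first, a step added after seeing the data to a plan that counted each library. Comparisons with a common group share its libraries and are not independent. As an alternative, edgeR 4.0.16 was run on recovered tags with TMM factors computed from the features tested. Other alternatives included scaling to intron tags, other pseudocounts and filters, a replicate block and leaving out each library.

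The members and gene lists were chosen with earlier results of these data known. Genes were named by rule: the 10 with the most peaks; the 5 largest called, non-overlapping differences each way per gene comparison; 3 peaks each way per peak comparison; and the 2 genes with most peaks per list. Other genes, such as extremes of length or position, list members called per intron tag and the printed sequences, were chosen after their values were seen. A few genes that these rules name are not reported here.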

Additional observations from a re-analysis of the deposited data

Results flagged for a closer look

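The 8 groups of 4 to 7 libraries were checked on 2 measures for a library apart from the others, and 2 of the 16 checks found one; chance flags about 1 in 20. In enriched G3BP arsenite libraries, replicate 6, of set JL1024, had 12.3% of its peak tags in the member introns, above the 6 others at 2.95% to 6.45%. In enriched G3BP mock libraries, replicate 1, of set JL0361, had 22.3% of its intron tags in the members, below the other 5; it held 519 tags in peaks.

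The effect of arsenite differed between the fractions for 340 of the 442 members by limma's interaction term, and for 6 per intron tag. The share of peak tags in the members differed by 7.01 points between arsenite and mock in the cytoplasmic libraries and by -2.23 points in the nuclear ones, with no overlap of groups in either; the difference between these 2 changes of share was not tested.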

How the results depend on the processing

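In the fraction libraries 32.7% to 64.7% of the member peaks had a tag. Of 165 alternatives to the 23 results, leaving libraries out aside, 109 kept the direction and call or stayed within 1.5 times the count, and 56 did not; the cause was not tested. Over 83 named values, 1040 of 1288 alternatives kept the call, 225 lost it and 23 turned the sign.

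Members called per intron tag and by edgeR were 67 and 62 for nuclear minus cytoplasmic mock, 12 and 28 for arsenite, 85 and 155 for arsenite minus mock in the cytoplasm, 19 and 38 in the nucleus, 6 and 9 for the interaction, 25 and 65 for NLS minus NES mock, and 10 and 11 for arsenite. With no filter the counts were 2 for nuclear minus cytoplasmic arsenite, 4 for arsenite minus mock in the nucleus, and 0 for NLS minus NES mock and arsenite by limma, where 210 and 343 members had an unadjusted p under 0.05. With only the 2 groups compared they were 14 for nuclear minus cytoplasmic arsenite and 18 for arsenite minus mock in the nucleus, and with a smaller pseudocount 7 in the nucleus and 72 for NLS minus NES mock. Scaling to all peaks gave 39 and 88 for NLS minus NES mock and arsenite, and averaging noise pairs gave 51 for mock. With no filter limma also called 0 of all genes for NLS minus NES mock and arsenite. The other counts with no filter, with only the 2 groups and with a smaller pseudocount are of members alone. They give no comparison with all genes.

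Member peaks called for nuclear minus cytoplasmic mock were 112 with a pseudocount 4 times smaller, 27 with no filter, 952 with a mean of at least 1 tag, 16 by edgeR and 946 with all 12 libraries. For arsenite they were 22, 0, 429, 20 and 82, and 96 per intron tag. For arsenite minus mock in the cytoplasm they were 1260, 0, 721, 304 and 422. In the nucleus they were 1, 0, 155, 0 and 82, with 1 under a pseudocount 4 times larger and 9 per intron tag. Where limma gave 0 with no filter, 6052, 8263 and 5011 peaks had an unadjusted p under 0.05, and 3546 where edgeR gave 0. Over all peaks, edgeR called 1832, 301, 1845 and 95 in the same order of comparisons. Where limma with no filter called 0 member peaks, it also called 0 of all peaks. The other counts in this paragraph are of members alone and give no comparison with all peaks.

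Deviations of same-numbered fraction libraries correlated weakly (-0.0232 to 0.0362), and the labels do not say whether the numbers pair them. In both nuclear minus cytoplasmic comparisons each library correlated best with its own number (0.00829 to 0.0362). The main fits did not pair them. With the replicate block, members called were 420, 5, 388 and 6 in the 4 fraction comparisons, 322 for the interaction and 130 and 282 for NLS minus NES, and peaks 145, 21, 233 and 3. These block counts are of members alone and give no comparison with all genes or peaks. The NLS minus NES arsenite share under the replicate block was 10.3 points (exact p = 0.125), and of the library total 1.69 points (exact permutation p = 0.143). With pairs within sampling noise averaged, a setting chosen after seeing the data, it was 9.69 points (exact permutation p = 0.1). The G3BP minus NES mock share of the library total was 0.900 points (exact permutation p = 0.0286), and arsenite minus mock in the nucleus within intron tags was 1.24 points.

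Leaving out 1 library gave 390 to 429, 1 to 3, 322 to 416 and 0 to 5 members in the 4 fraction comparisons, 226 to 391 for the interaction, 28 to 108 for NLS minus NES mock and 143 to 307 for arsenite. Peaks ranged from 0 to 3298, 0 to 1, 0 to 3728 and 0 to 1496; 3298 came without nuclear mock 1, 3238, 3728 and 3111 without cytoplasmic arsenite 1, 2 and 3, and 1496 without nuclear arsenite 3. Where limma called 0 member peaks without 1 library, 4466 to 8227 had an unadjusted p under 0.05, and 0 to 191 of all peaks were called. The other leave-out counts are of members alone and give no comparison with all genes or peaks. Shares ranged from 10.1 to 11.7, 1.15 to 1.75, 6.44 to 8.14 and -2.46 to -1.86 points in the fractions, 4.43 to 8.96 and 8.68 to 11.9 for NLS minus NES, and 2.14 to 4.32 and -1.77 to 0.799 for G3BP minus NES. Positions ranged from -0.0137 to -0.0123, -0.0102 to -0.00783, 0.00669 to 0.00908 and 0.0110 to 0.0127.

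The sign turned for AEBP2 (0.063) and FNIP1 (0.24) without their highest peaks. For nuclear minus cytoplasmic mock it turned by edgeR and per intron tag for COP1 (-0.13, -0.16), EXOC4 (-0.013, -0.049), LRP1B (-0.12, -0.15), MBNL1 (-0.15, -0.20), PARD3B (-0.020, -0.066), PTPRK (-0.031, -0.068) and SOX5 (-0.020, -0.067), and per intron tag for DPYD (-0.013), PARD3 (-0.042), UBR3 (-0.022) and ZBTB20 (-0.033). In the cytoplasm after arsenite it turned for MBNL1 (-0.071, -0.19) and PARD3B (-0.058 per intron tag).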
